A study of Mus musculus with 6 samples.

Results

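The nuclear genes of oxidative phosphorylation were followed, complex by complex, in cultured mammary fibroblasts of 2 inbred mouse strains. The genes were taken by symbol alone: names starting with Nduf and the letter a, b, c, s or v and a number (complex I), Sdha to Sdhd (complex II), Uqcr (complex III), Cox with a number from 4 to 8 (complex IV) and Atp5 (complex V). The rule found 80 of the 12023 genes in the deposited table, 36 for complex I, 4 for complex II, 7 for complex III, 16 for complex IV and 17 for complex V. The cells were grown from mammary fat pads of females without disease, 3 biological replicates of BALB/c and 3 of C57BL/6. A protocol in the labels gives an age of 8 weeks and another 8 to 12 weeks. Collagenases and DNase freed the cells, red blood cells were removed by lysis, and culture on rat-tail collagen lasted 4 days. A magnetic separation is mentioned in the design text, with no target named. No treatment or allele beyond the strain is named, and the comparison asks how the normal fibroblasts of the strains differ at baseline.

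Oxidative phosphorylation takes place in the inner mitochondrial membrane. Complex I takes electrons from NADH and complex II takes them from succinate, complex III passes them from ubiquinol to cytochrome c, and complex IV hands them to oxygen. Complexes I, III and IV pump protons, and complex V, the ATP synthase, makes ATP from the proton gradient through a rotating ring. The mitochondrial genome encodes part of every complex except complex II, and nuclear genes such as those described here encode the rest. Several subunits of complexes IV and V have more than 1 nuclear gene, and some of these versions are known from muscle, lung or low oxygen.

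Total counts were 1035485 to 4665896 per library, from the 3′ ends of polyadenylated RNA, and the members took 2.36% to 2.75% of them in each library. Levels are given as CPM, counts relative to the library size after TMM scaling. They are not divided by transcript length and are compared between libraries, not between genes. C57BL/6 replicate 1 stood apart from the other libraries. Among the 8752 genes that passed the filter on low counts, it was the lowest library for 38.8% and the highest for 35.2%. Its summed fibroblast markers (11 of 12 listed genes in the table, all detected in every library) were also the lowest. They came to 3205 CPM, against 7217 to 14820 CPM in the other 5 libraries. Of this list Col1a2, Col3a1, Dcn, Fn1, Pdgfra and Vim were lowest there. Pdgfrb was highest there, at 343 CPM against 148 to 277 CPM. Col1a1, Fbln1, Mmp2 and Thy1 lay within the range of the other libraries. Keratins and other epithelial markers (10 of 10) summed to 17951 CPM there. They summed to 8898 to 11405 CPM in BALB/c replicates 2 and 3 and C57BL/6 replicate 3. In BALB/c replicate 1 and C57BL/6 replicate 2 the sums were 1918 and 3106 CPM. Krt7, Krt8, Krt14, Krt17, Krt18, Krt19 and Cldn4 were highest in C57BL/6 replicate 1. Krt5, Epcam and Cdh1 lay there within the range of the other libraries, Epcam at 168 CPM against 364 CPM in BALB/c replicate 2. The part of this cell content in the results was not tested, and in such bulk samples fewer cells of a type and less RNA per cell cannot be told apart. Log2 differences are given over all 6 libraries and, for many genes, followed by the value without C57BL/6 replicate 1, in parentheses where no other label is given.

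The summed level of the members differed between the strains by less than the spread between replicates. The members summed to 25244, 26703 and 25029 CPM in the BALB/c libraries (replicates 1, 2 and 3) and to 29789, 23848 and 23556 CPM in those of C57BL/6. C57BL/6 replicate 1 was thus the highest library and the other C57BL/6 libraries were the lowest. The log2 ratio of the strain means, BALB/c over C57BL/6, was -0.0040 with all libraries and 0.11 without C57BL/6 replicate 1. A sum over chosen genes was given no test.

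The complexes kept close proportions to each other. Complex I made up 30.4% to 33.6% of the members' counts in the 6 libraries, complex II 2.85% to 3.59%, complex III 6.24% to 8.33%, complex IV 26.0% to 27.2% and complex V 28.5% to 31.9%. Complex I summed to 7896 ± 244 CPM in BALB/c, beside 8342 ± 1435 CPM in C57BL/6 (mean ± SD, n = 3 per strain). Complex III, which varied most, summed to 1576, 2006 and 1875 CPM in the BALB/c libraries, with 2483, 1549 and 1660.4 CPM in those of C57BL/6. With all 6 libraries the strains overlapped in the sum of every complex. The highest library exceeded the lowest by 1.60 times for complex III and by 1.14 times for complex V. The log2 ratios were -0.08, 0.12, -0.06, 0.0099 and 0.06 for complexes I to V. Without C57BL/6 replicate 1 all 5 were positive, at 0.07, 0.15, 0.18, 0.13 and 0.12. The strains then overlapped for complex III alone. The lowest BALB/c and highest remaining C57BL/6 sums were 7632 and 7546 CPM for complex I and 813 and 803 CPM for complex II. They were 6788 and 6493 CPM for complex IV and 7921 and 7486 CPM for complex V.

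**Figure D1:**
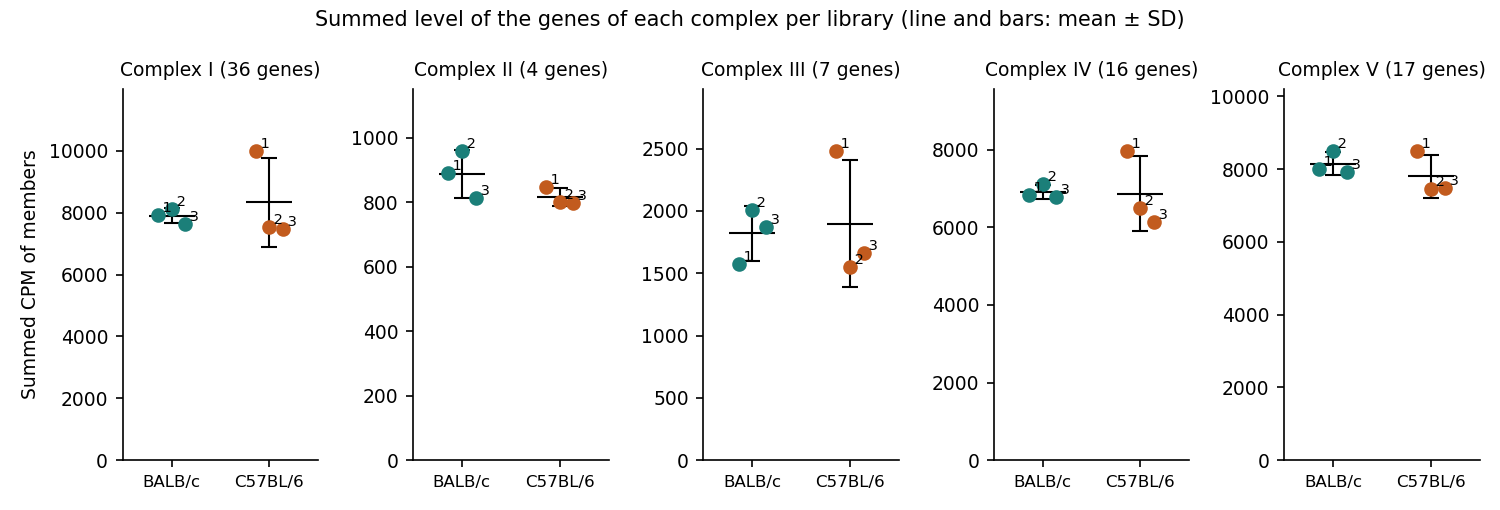
Summed CPM of the members of each complex (vertical axes, starting at 0) in the libraries of both strains, numbered by replicate, with the mean and SD per strain. The strains overlap in all 5 panels, and C57BL/6 replicate 1 is the highest library for complexes I, III and IV. Without that library they overlap for complex III alone.

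Gene by gene, 75 members had enough counts to be tested, and 0 differed between the strains at an adjusted p under 0.05 (edgeR's quasi-likelihood test, Benjamini-Hochberg adjustment over all 8752 genes). The same test called 18 of all genes, or 0.206%. The lowest adjusted p of a member was 0.763, for Ndufa12. At an unadjusted p under 0.05 there were 6 members of 75 (8%), beside 3.86% of all tested genes. These were Ndufa12, Ndufa4, Ndufa4l2, Cox7a1, Cox7a2l and Atp5g1. DESeq2 called 0 members and 0.632% of the genes it tested, with a lowest adjusted p of 0.380 for Ndufa12. A limma-voom fit that weights libraries by their quality called 1 member, Atp5g2, and 0.651% of genes. Without C57BL/6 replicate 1, edgeR called 0 members and 0.276% of genes. The standard error of a member's log2 difference had a median of 0.29, and it was under 0.4 for 66 of the 75. In counts simulated from these libraries the test found 39% of genes changed by 2 on the log2 scale and 85% of those changed by 3. The changed genes were drawn at random from all count levels, and those lost to the filter counted as missed. These shares therefore do not describe the members alone. Smaller changes were not simulated. Each gene was given the same spread in every simulated library, so none stood apart as C57BL/6 replicate 1 does in the data.

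The differences were small and lay on both sides of 0. Of the 75, 42 were higher in BALB/c and 33 lower, with a median log2 difference (BALB/c minus C57BL/6) of 0.08 beside 0.01 over all tested genes. Their median size regardless of sign was 0.27, beside 0.31 over all genes. Without C57BL/6 replicate 1, 57 were higher and 18 lower, with a median of 0.13 beside 0.0032. The balance of directions thus depended on 1 library. The strains did not overlap in CPM for 17 members (22.7%), beside 11.4% of all tested genes. Of these 10 were higher in BALB/c, beside 5.15% of genes, and 7 lower, beside 6.22%. Without C57BL/6 replicate 1 the strains did not overlap for 26 members (34.7%), beside 19% of genes.

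**Figure D2:**
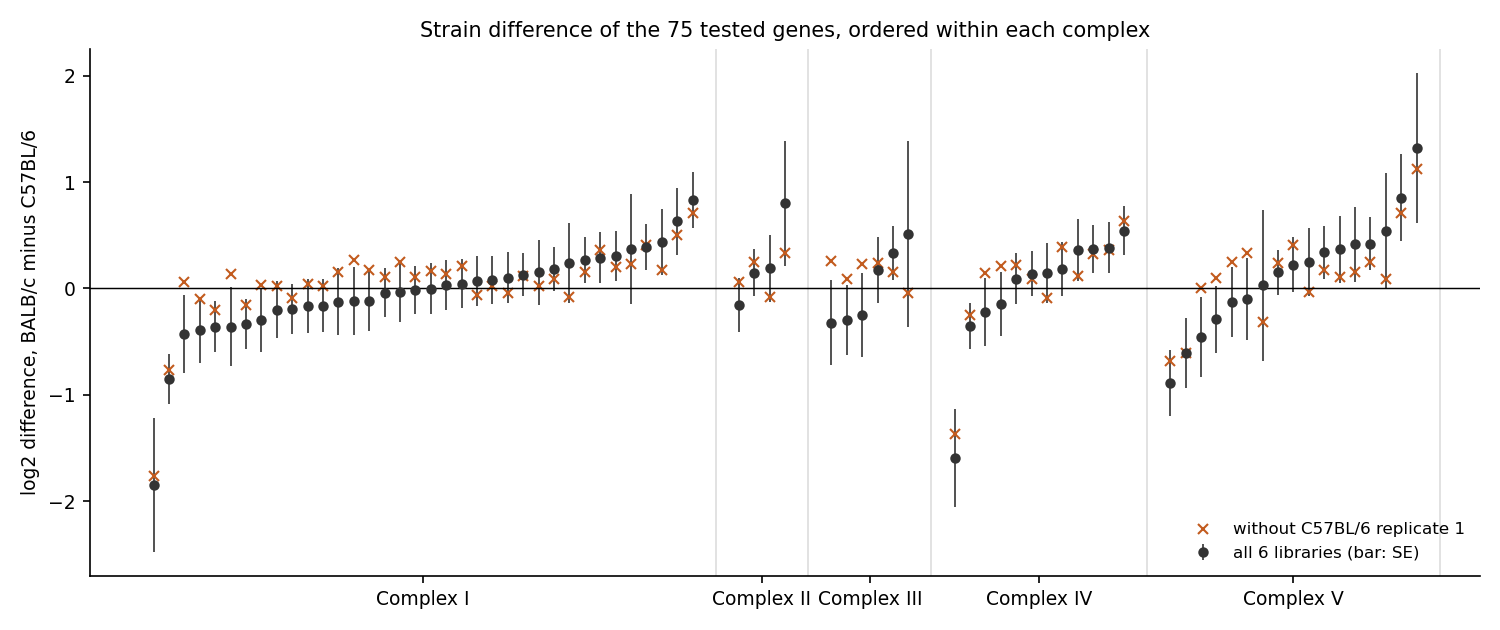
Log2 difference of the 75 tested genes (vertical axis, BALB/c minus C57BL/6), ordered within each complex. Points and bars are the estimate and its standard error over 6 libraries, and crosses are the estimates without C57BL/6 replicate 1. Most points lie within 0.5 of 0, and 2 lie below -1.5, Ndufa4l2 in complex I and Cox7a1 in complex IV.

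Complex I was represented by 7 core subunits, which carry the flavin and the iron-sulfur clusters, and by 26 accessory subunits, which surround them. The core genes had 4 higher and 3 lower in BALB/c with a median of 0.05 and a range of -0.30 to 0.63, and without C57BL/6 replicate 1 all 7 were higher, with a median of 0.21. None passed the test in either fit. Ndufs3, a core subunit of the arm that protrudes into the matrix, had 103, 103 and 91.0 CPM in the BALB/c libraries and 51.2, 93.0 and 48.4 CPM in those of C57BL/6 (replicates 1, 2 and 3 in this order, as for the genes that follow). C57BL/6 replicate 2 lay within the BALB/c range and the other C57BL/6 libraries lay below it. The log2 difference was 0.63 ± 0.31 (SE), or 0.51 without C57BL/6 replicate 1, and a processed pseudogene, Gm12251, matches the 3′ end of Ndufs3 at 99.3%, so its counts depend on how shared reads were treated.

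The accessory genes of complex I had 11 higher and 15 lower, with a median of -0.02 and a range of -0.85 to 0.44 (median 0.05 without C57BL/6 replicate 1). Ndufa12, a subunit on the matrix arm, lies at chr10:94198720-94221443 (GRCm38, the assembly of mm10). It was at 107, 137 and 138 CPM in the BALB/c libraries and 260.5, 195 and 235 CPM in those of C57BL/6. Every C57BL/6 library was above every BALB/c library. The log2 difference was -0.85 ± 0.24 and stayed at -0.76 without C57BL/6 replicate 1, the adjusted p being 0.763 and 0.517 in the edgeR quasi-likelihood fits. Ndufa13, also known as GRIM-19, had 424, 398 and 414 CPM in the BALB/c libraries and 646, 450.2 and 464 CPM in those of C57BL/6, again without overlap, with a difference of -0.34 ± 0.24. An exon of Tssk6 on the opposite strand overlaps it. C57BL/6 replicate 1 was the highest library, and without it the difference was -0.16.

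Ndufa7 and Ndufb9, accessory genes of high count, were highest in that library, and their strains overlapped. Ndufa7 was at 435 ± 52.2 against 559 ± 287 CPM (mean ± SD, n = 3 per strain), with 889.9 CPM in C57BL/6 replicate 1 and 374 and 413 CPM in the other C57BL/6 libraries. Its log2 difference was -0.36 ± 0.37, and 0.14 without that library. Ndufb9 had 403 ± 25.1 against 414 ± 75.1 CPM, a difference of -0.04 ± 0.23 (0.11 without C57BL/6 replicate 1). Among the genes picked out after their values were seen, Ndufa5 was at 105, 105 and 111 CPM in the BALB/c libraries and 84.8, 87.5 and 73.1 CPM in those of C57BL/6. The BALB/c libraries of Ndufa5 lay close together and above all C57BL/6 libraries, a difference of 0.39 ± 0.22 (0.41), adjusted p 0.954 in edgeR's quasi-likelihood test. Ndufb5 had 198, 173 and 189.7 CPM in the BALB/c libraries and 83.3, 160.2 and 169.6 CPM in those of C57BL/6, again with the BALB/c libraries above, and its difference of 0.44 ± 0.31 was 0.17 without C57BL/6 replicate 1, its lowest library. Ndufv3, which encodes a small subunit beside the flavoproteins, was lower in every BALB/c library, at 240.1, 199 and 254 CPM against 361, 269.6 and 258 CPM (-0.36 ± 0.24, and -0.20 without C57BL/6 replicate 1). The remaining complex I genes without overlap, Ndufa6, Ndufb11 and the core flavoprotein Ndufv2, were higher in BALB/c by 0.13, 0.18 and 0.27, or by 0.11, 0.09 and 0.16 without C57BL/6 replicate 1. Their gaps were narrow: for Ndufa6 the lowest BALB/c library had 267.4 CPM and the highest C57BL/6 library 267.3 CPM. Exons of Mrpl47 and Rbm10 overlap Ndufb5 and Ndufb11 on the opposite strand, and Ndufb11 has 1 near-identical copy.

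Of the symbols that begin like complex I genes, 3 do not stand for subunits of it. Ndufa4 was named as a complex I subunit and is now placed in complex IV, Ndufa4l2 is its low-oxygen relative, known as a target of hypoxia-inducible factor 1 and for lowering complex I activity, and Ndufs5-ps is listed by RefSeq as a transcribed pseudogene. Ndufa4 (chr6:11900292-11907497) had 187, 243 and 161 CPM in the BALB/c libraries and 91.7, 132 and 109 CPM in those of C57BL/6. Each BALB/c library was above each C57BL/6 library, with a log2 difference of 0.83 ± 0.26 and 0.71 without C57BL/6 replicate 1. With an offset for GC content and transcript length in the fit it was 0.26. Ndufa4l2 (chr10:127514967-127517154) went the other way, with 18.7, 2.86 and 11.6 CPM in the BALB/c libraries and 45.1, 42.2 and 29.0 CPM in those of C57BL/6, from 8 to 28 counts and 54 to 142 counts. All C57BL/6 libraries were above all BALB/c libraries. The log2 difference was -1.84 ± 0.63, or -1.76 without C57BL/6 replicate 1. The adjusted p of each gene was 0.954 in edgeR's quasi-likelihood test. Shmt2 lies on the opposite strand with an overlapping exon, and the sources used here do not say whether counting used the strand. Ndufs5-ps had 8 to 28 counts per library and a difference of 0.37 ± 0.51 (0.23 without C57BL/6 replicate 1).

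The share of Ndufa4l2 within the pair in each library does not depend on scaling. It separated the strains too, which follows from the opposite separation of both genes and is not further support. The share was not adjusted for GC content, which is 44.1% for the transcript of Ndufa4 and 59.3% for that of Ndufa4l2. Ndufa4l2 took 9.09%, 1.17% and 6.74% of the counts of the pair in BALB/c replicates 1, 2 and 3, with exact (Clopper-Pearson) 95% intervals of 6.13% to 12.9%, 0.505% to 2.28% and 3.53% to 11.5%. In C57BL/6 replicates 1, 2 and 3 it took 33.0%, 24.2% and 21.0%, with intervals of 26.1% to 40.4%, 18.7% to 30.4% and 18.0% to 24.3%. None of the BALB/c intervals reached a C57BL/6 interval, and the means were 5.67% ± 4.07 and 26.1% ± 6.17 (SD, n = 3). Such intervals cover counting error only. Markers of smooth muscle and pericytes (5 of 5 in the table), cells in which Ndufa4l2 is known to be expressed, summed to 265 to 377 CPM in BALB/c, beside 574 to 728 CPM in C57BL/6. Of this list Cnn1 separated the strains, at 154 to 211 CPM and 356 to 496 CPM, while Acta2, Des and Myh11 overlapped. The pericyte marker Rgs5 overlapped too, at low levels of 0 to 2.00 CPM in BALB/c and 0.764 to 5.31 CPM in C57BL/6. Their part in the difference of Ndufa4l2 was not tested.

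Complex II, succinate dehydrogenase, also serves the citric acid cycle and has all 4 of its subunits encoded in the nucleus. The flavoprotein gene Sdha had 124 ± 11.3 against 109 ± 37.4 CPM and a difference of 0.19 ± 0.31 (-0.08 without C57BL/6 replicate 1). Sdhb, the iron-sulfur subunit, had 327 ± 26.7 against 365 ± 91.5 CPM and a difference of -0.16 ± 0.25 (0.06). The membrane anchor Sdhc stood at 282 ± 29.3 against 255 ± 33.2 CPM, a difference of 0.15 ± 0.22 (0.25). Over 6 libraries none of these was larger than its standard error. Sdhd, the other membrane anchor, had 161, 174 and 129 CPM in the BALB/c libraries and 20.6, 135 and 109.6 CPM in those of C57BL/6. C57BL/6 replicate 1 lay far below the other 5 libraries, with 27 counts, and the remaining libraries of the strains overlapped. The log2 difference of Sdhd was 0.80 ± 0.59, and 0.34 without that library.

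Complex III was covered by 7 genes, of which 6 were tested, with 3 higher and 3 lower in BALB/c. The core proteins Uqcrc1 and Uqcrc2, which form the matrix-facing part of the complex, went opposite ways in C57BL/6 replicate 1. Uqcrc1 had 281, 322 and 304 CPM in the BALB/c libraries and 633, 269.6 and 233 CPM in those of C57BL/6. Uqcrc2 had 201, 117 and 172 CPM and 6.88, 185 and 149 CPM, and the lowest of these rests on 9 counts. The first gene was highest and the second lowest in that library, while the remaining 5 libraries of each lay closer together. Their differences were -0.32 ± 0.40 and 0.51 ± 0.87, which became 0.26 and -0.05 without it, so both changed sign. An exon of Pdzd9 overlaps Uqcrc2 on the opposite strand.

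The Rieske iron-sulfur protein Uqcrfs1 had 279, 241 and 267 CPM in the BALB/c libraries and 157, 252 and 215 CPM in those of C57BL/6, a difference of 0.33 ± 0.25 that was 0.16 without C57BL/6 replicate 1. The hinge protein gene Uqcrh ran from 243 to 467 CPM in BALB/c and from 258 to 368 CPM in C57BL/6, so the strains overlapped, with a difference of 0.17 ± 0.31 (0.24). The small subunits Uqcr10 and Uqcr11 had differences of -0.29 ± 0.33 and -0.25 ± 0.39, and both were positive without C57BL/6 replicate 1 (0.09 and 0.23). Both have near-identical copies elsewhere in the genome. Uqcrb, which binds ubiquinone, was not tested: it had 6, 7 and 4 counts in BALB/c and 1, 3 and 7 counts in C57BL/6, and 3 near-identical copies were found for its 3′ end, the longest with 98.2% identity. Its low counts are therefore uncertain as a measure of the gene.

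Complex IV, cytochrome c oxidase, was counted from 10 subunit genes of the common form, 5 genes of tissue forms and Cox7a2l. Of the 10 common genes 7 were higher and 3 lower in BALB/c, with a median of 0.14 and a range of -0.35 to 0.38. Cox4i1, needed for assembly and binding ATP as a regulator, had 1049, 1239 and 1057 CPM in the BALB/c libraries and 1787, 942 and 979 CPM in those of C57BL/6. The difference of -0.15 ± 0.30 came with a single high library, and it was 0.21 without C57BL/6 replicate 1. Cox6a1 had 1289, 1125 and 1125 CPM and 1739, 1393 and 1394 CPM. The strains did not overlap for Cox6a1, which was lower in BALB/c (-0.35 ± 0.22, and -0.25 without C57BL/6 replicate 1; adjusted p 0.954, edgeR's quasi-likelihood test). Cox6b1 was at 770.1 ± 109 against 897 ± 361 CPM (-0.22 ± 0.32, and 0.14 without that library), Cox6c at 411 ± 56.1 against 316 ± 54.3 CPM (0.38 ± 0.24, and 0.37), and Cox8a at 441 ± 15.2 against 389 ± 100.1 CPM (0.18 ± 0.26, and 0.39). For these 3 genes, small subunits of the complex, the strains overlapped. Cox6c has 2 near-identical copies. Cox7c, chosen after its values were seen, was higher in every BALB/c library, at 802, 787 and 900.0 CPM against 609, 764 and 558 CPM (0.37 ± 0.23, and 0.32 without C57BL/6 replicate 1), and has 4 near-identical copies. Cox5a, Cox5b and Cox7b had differences of 0.36, 0.09 and 0.14, with overlap between the strains, which were 0.12, 0.22 and -0.09 without that library.

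Of the tissue forms of complex IV subunits, Cox4i2, Cox6b2 and Cox8b were at 0 to 15 counts per library, and Cox6a2 and Cox7a1 had higher counts in some libraries. Cox4i2, the form known from lung and low oxygen, had 4, 2 and 0 counts in BALB/c and 3, 1 and 15 in C57BL/6. Cox6b2, known from testis, had 2 to 12 counts per library. Cox8b, a form known from heart, skeletal muscle and brown fat, had 0 counts in every BALB/c library and 2, 0 and 8 in C57BL/6 replicates 1, 2 and 3. A count of 0 allows up to 3 counts, or 1.11 to 2.90 CPM in these BALB/c libraries, so no fold was computed. Of 4 brown fat markers, Ucp1 and Elovl3 are not among the genes analysed here. Cidea was at 0 to 0.358 CPM in BALB/c and 1.53 to 1.63 CPM in C57BL/6. Dio2 was at 0.667 to 2.15 CPM in BALB/c and 0 to 1.43 CPM in C57BL/6.

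Cox6a2, the form of heart and skeletal muscle, had 21.3, 0.716 and 0.968 CPM in the BALB/c libraries and 3.82, 21.9 and 1.84 CPM in those of C57BL/6. The high libraries were BALB/c replicate 1 and C57BL/6 replicate 2, which are the same libraries that had the lowest sums of epithelial markers. It took 1.63% and 1.55% of the counts of Cox6a1 and Cox6a2 there and 0.0636% to 0.219% in the other 4 libraries. Itgad overlaps Cox6a2 on the opposite strand, and the reads of the genes cannot be told apart without the strand.

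Cox7a1, the muscle form of subunit 7a (chr7:30184144-30186078), had 4.00, 3.94 and 3.87 CPM in the BALB/c libraries and 16.0, 9.38 and 10.8 CPM in those of C57BL/6. The BALB/c libraries were nearly equal, from 4 to 11 counts each, and all C57BL/6 libraries were higher, from 12 to 53 counts. The log2 difference was -1.59 ± 0.47, and -1.37 without C57BL/6 replicate 1, with adjusted p of 0.853 and 0.797 in edgeR's quasi-likelihood fits. Skeletal muscle markers (3 of 5 in the table, with Ckm and Myh4 not among the genes analysed here) summed to 114 to 251 CPM in BALB/c, beside 659 to 1545 CPM in C57BL/6. Nearly all of that was Acta1, skeletal actin, at 104.7, 236 and 226 CPM in BALB/c, beside 1487, 650.3 and 906 CPM in C57BL/6. Myh1, a myosin of fast muscle, was at 1.56 to 6.11 CPM. Mb was at 6.00 to 14.5 CPM in BALB/c and 7.03 to 51.9 CPM in C57BL/6. The strains overlapped for Myh1 and Mb. No marker of the list passed the test, and its part in the difference of Cox7a1 was not tested.

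The common form Cox7a2 showed no such separation, at 416, 468 and 493 CPM in the BALB/c libraries and 390.3, 407 and 451 CPM in those of C57BL/6, a difference of 0.14 ± 0.21 (0.09 without C57BL/6 replicate 1). Cox7a2l, known as SCAF1 or Cox7rp and involved in joining complexes III and IV into supercomplexes, lies at chr17:83501918-83517330. Cox7a2l had 209, 219.8 and 201 CPM in the BALB/c libraries and 163, 156 and 115 CPM in those of C57BL/6. The strains did not overlap, and the estimate was 0.54 ± 0.23, or 0.64 without C57BL/6 replicate 1, with adjusted p of 0.954 and 0.697 in edgeR's quasi-likelihood fits. The offset for GC content and length gave 0.31. Within the set of Cox7a1, Cox7a2 and Cox7a2l, Cox7a2l took 31.3% ± 2.25 of the counts in BALB/c and 25.3% ± 4.68 in C57BL/6 (SD, n = 3), and Cox7a1 took 0.587% ± 0.043 and 2.11% ± 0.62. The lowest BALB/c share of Cox7a2l, 28.8%, was close to the highest C57BL/6 share, 28.7%.

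**Figure D3:**
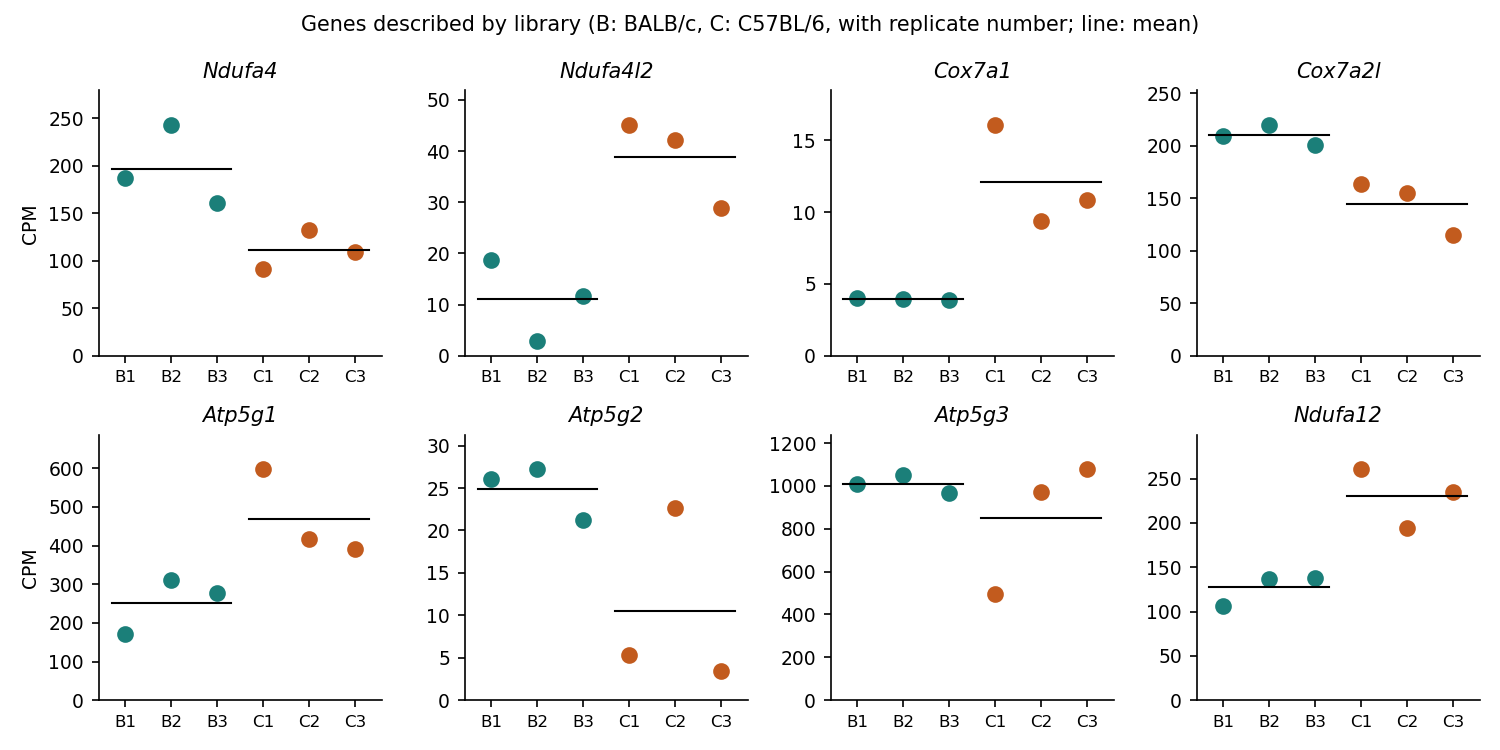
CPM (vertical axes, starting at 0) of 8 genes in each BALB/c (B1 to B3) and C57BL/6 (C1 to C3) library, with the mean of each strain as a line. The strains do not overlap for Ndufa4, Ndufa4l2, Cox7a1, Cox7a2l, Atp5g1 and Ndufa12, and they overlap for Atp5g2 and Atp5g3.

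In complex V, the catalytic head and central stalk were covered by 5 genes, 3 higher and 2 lower in BALB/c. Atp5b, the catalytic beta subunit, had 2043, 1776 and 1752 CPM in the BALB/c libraries and 1895, 1633 and 1489 CPM in those of C57BL/6, a difference of 0.15 ± 0.21 (0.24 without C57BL/6 replicate 1). Atp5d, the delta subunit at the foot of the stalk, had 769 ± 13.9 against 940.5 ± 399.8 CPM, with a difference of -0.29 ± 0.32 that became 0.10 without C57BL/6 replicate 1. Cbarp overlaps Atp5d on the opposite strand. Chosen after their values were seen, the alpha subunit Atp5a1 and the gamma subunit Atp5c1 were the members of this group whose strains did not overlap, with 0.34 ± 0.25 and 0.42 ± 0.25, or 0.17 and 0.25 without C57BL/6 replicate 1. Atp5c1 has 2 near-identical copies, and Haus1 overlaps Atp5a1 on the opposite strand.

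All 4 genes of the peripheral stalk, which holds the head still against the rotor, were higher in BALB/c, with a median of 0.39 that became 0.13 without C57BL/6 replicate 1. None passed the test. Their differences ran from 0.22 to 0.54. Atp5pb, also named after its values were seen, had 492, 509 and 408 CPM in the BALB/c libraries and 90.1, 476 and 403 CPM in those of C57BL/6, so that 1 library lay far below the other 5. Its difference was 0.54 ± 0.54, and 0.09 without that library. Wdr77 overlaps Atp5pb on the opposite strand, and a pseudogene matches its 3′ end at 99.1%. Of the other membrane subunits, Atp5l had 39.4, 53.3 and 66.8 CPM in the BALB/c libraries and 22.2, 46.1 and 20.8 CPM in those of C57BL/6 (0.85 ± 0.41, and 0.71 without C57BL/6 replicate 1), with 10 near-identical copies in the genome. Atp5md, a small subunit known as DAPIT, had 57.4, 119 and 76.5 CPM and 128, 152 and 107 CPM (-0.61 ± 0.33, and -0.60), with Taf5 overlapping on the opposite strand. The strains overlapped for both.

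The rotating ring of the ATP synthase consists of copies of subunit c, and 3 nuclear genes, Atp5g1, Atp5g2 and Atp5g3, encode the same mature protein with different import sequences. Because the proteins do not differ once imported, the promoters of the genes are shown, with those of the Cox7a1 and Cox7a2 pair, another set in which the members had unlike differences. The 250 bases before the annotated start are given 5′ to 3′ on the strand of the gene, from RefSeq on GRCm38.p6, with the match to the motif of nuclear respiratory factor 1 (NRF1) in capitals. They lie at chr11:96075632-96075881 (minus strand), chr15:102671048-102671297 (minus), chr2:73911327-73911576 (minus), chr7:30183921-30184170 (plus) and chr9:79759854-79760103 (minus).
Atp5g1: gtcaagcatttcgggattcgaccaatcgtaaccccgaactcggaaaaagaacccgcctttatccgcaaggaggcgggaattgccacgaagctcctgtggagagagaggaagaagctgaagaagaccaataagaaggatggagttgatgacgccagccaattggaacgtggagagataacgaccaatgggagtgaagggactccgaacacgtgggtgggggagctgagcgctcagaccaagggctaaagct
Atp5g2: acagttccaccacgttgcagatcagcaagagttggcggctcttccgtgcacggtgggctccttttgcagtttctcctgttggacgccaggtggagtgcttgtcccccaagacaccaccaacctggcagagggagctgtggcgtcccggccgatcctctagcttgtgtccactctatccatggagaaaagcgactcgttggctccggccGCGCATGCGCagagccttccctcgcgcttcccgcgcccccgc
Atp5g3: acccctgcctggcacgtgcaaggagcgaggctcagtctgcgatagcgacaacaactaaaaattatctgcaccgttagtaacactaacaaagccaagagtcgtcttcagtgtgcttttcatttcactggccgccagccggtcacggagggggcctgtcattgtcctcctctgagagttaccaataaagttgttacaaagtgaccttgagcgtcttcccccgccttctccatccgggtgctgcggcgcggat
Cox7a1: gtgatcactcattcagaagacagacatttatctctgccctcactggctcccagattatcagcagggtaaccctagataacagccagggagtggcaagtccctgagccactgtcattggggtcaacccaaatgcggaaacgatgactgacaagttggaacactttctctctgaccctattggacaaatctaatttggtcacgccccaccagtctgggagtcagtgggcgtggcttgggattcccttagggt
Cox7a2: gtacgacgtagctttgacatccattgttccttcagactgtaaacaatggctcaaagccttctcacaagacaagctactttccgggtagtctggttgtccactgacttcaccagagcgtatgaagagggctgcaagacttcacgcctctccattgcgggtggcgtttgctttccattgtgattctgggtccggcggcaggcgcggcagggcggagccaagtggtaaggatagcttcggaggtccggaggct
The match in Atp5g2 begins 42 bases before the start, and Atp5g3 holds another on the reverse strand 13 bases after its start, outside the stretch shown. For Atp5g2 the GENCODE gene model begins further upstream than the RefSeq start, at chr15:102672352, so the stretch shown lies within that model. In windows from 250 bases before to 50 after the start, no NRF1 match was found for Atp5g1, Cox7a1 or Cox7a2.

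Over the members, 65 of 80 symbols had a promoter in the RefSeq table. Searched on both strands in the same window of 300 bases, the NRF1 motif was found in 15 (23.1%), beside 5.19% of 27025 genes and 12.5% of the 7042 tested genes with a promoter. The ETS motif CCGGAAG, bound by factors such as GABP, was in 17 (26.2%), beside 9.93% and 22.3%. The YY1 motif AAGATGG was in 11 (16.9%), beside 7.28% and 9.07%, and the TATA motif TATAAA was in 7 (10.8%), beside 15.7% and 8.42%. Of the 15 with an NRF1 match, 6 belonged to complex V and 5 to complex I. None of the motifs is contained in another. A match of letters is a description and shows no binding.

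Atp5g1 (chr11:96068852-96075670) had 170.1, 311 and 277 CPM in the BALB/c libraries and 597, 417 and 391 CPM in those of C57BL/6. All C57BL/6 libraries were above all BALB/c libraries, with a log2 difference of -0.89 ± 0.31 that was -0.68 without C57BL/6 replicate 1 (edgeR's quasi-likelihood test, adjusted p 0.954 and 0.963) and -1.42 with the offset for GC content and length. The end of its longest transcript holds a repeat with 36 near-identical matches, so its counts are uncertain where such reads were dropped or shared.

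Atp5g3 had 1011, 1049 and 965 CPM in the BALB/c libraries and 497, 971 and 1077 CPM in those of C57BL/6. C57BL/6 replicate 1 was low and the other libraries lay together, with a difference of 0.25 ± 0.32 that was -0.03 without it. Atp5g2, the least counted of the trio, had 26.0, 27.2 and 21.3 CPM in the BALB/c libraries and 5.35, 22.7 and 3.47 CPM in those of C57BL/6. C57BL/6 replicate 2 lay within the BALB/c range, and the other C57BL/6 libraries had 7 and 17 counts. The difference of Atp5g2 was 1.32 ± 0.70 with an adjusted p of 0.954 in edgeR's quasi-likelihood test, while the limma-voom fit with library quality weights gave 2.63 with an adjusted p of 0.0264. In edgeR it was 1.12 without C57BL/6 replicate 1, 2.56 without C57BL/6 replicate 2 and 0.82 without C57BL/6 replicate 3. The limma-voom fit gave C57BL/6 replicate 3 a weight of 3.35, C57BL/6 replicate 1 a weight of 0.157 and the others 0.865 to 2.19. A transcript of Gm10175 matches the end of Atp5g2 over 127 bases without a mismatch.

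As shares of the trio, Atp5g1 took 14.1%, 22.4% and 21.9% of the counts in the BALB/c libraries and 54.3%, 29.5% and 26.6% in those of C57BL/6. Atp5g3 held the largest share in every library except C57BL/6 replicate 1, where Atp5g1 did. The mean share of Atp5g1 was 19.5% ± 4.67 in BALB/c and 36.8% ± 15.2 in C57BL/6 (SD, n = 3), and the strains did not overlap. The difference was -17.3 percentage points, and -8.59 without C57BL/6 replicate 1. No test was run on the shares. The trio summed to 1207, 1387 and 1263 CPM in BALB/c, and to 1100.0, 1410.0 and 1472 CPM in C57BL/6. The strains overlapped in this sum.

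**Figure D4:**
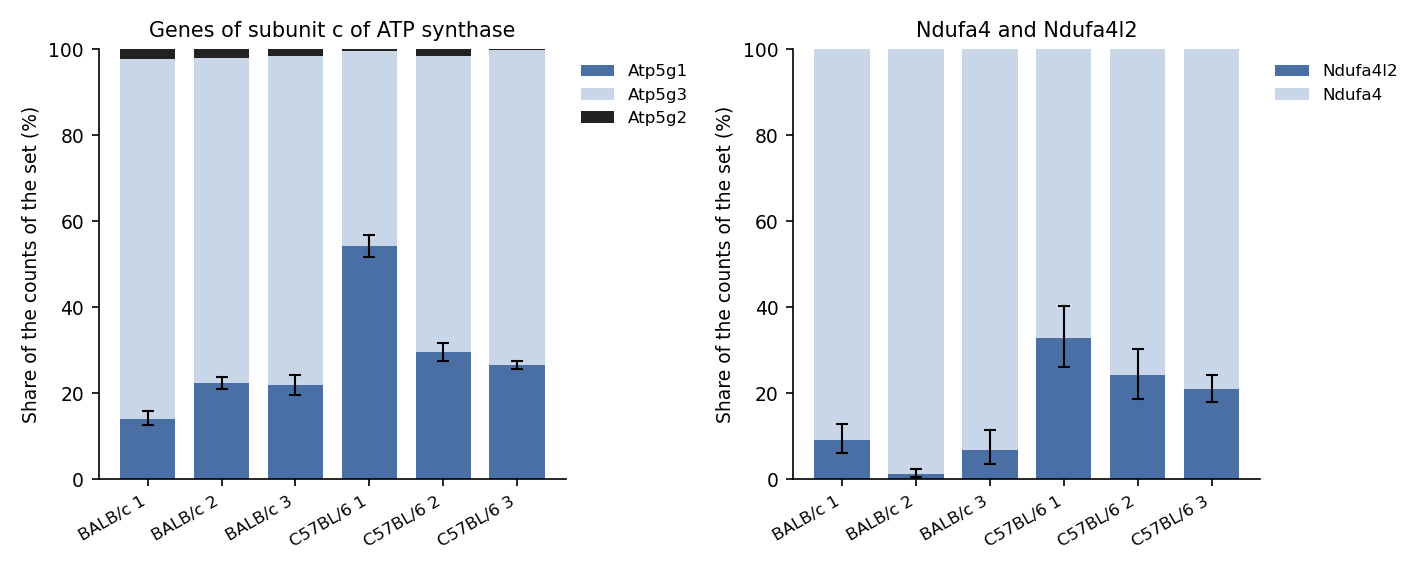
Share of the counts (vertical axis, percent) taken by each gene of the subunit c trio (left) and of the pair Ndufa4 and Ndufa4l2 (right) in the 6 libraries. Bars on the lowest segment are exact 95% counting intervals, and the shares of Atp5g1 and of Ndufa4l2 are higher in every C57BL/6 library than in any BALB/c library.

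The members varied most in C57BL/6 replicate 1. That library was below all others for 21 of the 75 tested members (28%, beside 38.8% of all genes) and above all others for 36 (48%, beside 35.2%). It lay at least 2-fold from the mean of the other 5 for 15 members (20%, beside 39.1% of genes), 8 of them lower and 7 higher. The standard deviation of the members' deviations from their mean over the libraries was 0.81 on the log2 scale there, and 0.27 to 0.42 in the other libraries, beside 1.19 and 0.37 to 0.63 over all tested genes. By complex, it was above all others for 21 of 36 in complex I, 1 of 4 in complex II, 3 of 6 in complex III, 6 of 12 in complex IV and 5 of 17 in complex V. Complex V had the lowest median deviation there, -0.54, beside 0.29 for complex I.

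The deviation in that library went with base composition. The transcripts of the members below all other libraries had a median GC content of 48.8%, and those of the members above all others 54.9%. Across 74 members, the deviation in C57BL/6 replicate 1 had a Pearson correlation with transcript GC content of 0.37 (Spearman 0.45), beside 0.64 over 8725 tested genes. In the other 5 libraries it was -0.25 to -0.08 over the members, beside -0.41 to -0.17 over all tested genes. Deviations are taken from the mean of all 6 libraries, so those of the other libraries partly mirror C57BL/6 replicate 1. These correlations run across genes of 1 library, which are not independent, and carry no test. With an offset for GC content and transcript length in the edgeR fit, 0 members and 19 of all genes passed the threshold. Of the 6 members with an unadjusted p under 0.05, the offset left the values of Ndufa12 (-0.98), Ndufa4l2 (-1.71) and Cox7a1 (-1.58) close to those without it, and moved Ndufa4 to 0.26, Cox7a2l to 0.31 and Atp5g1 to -1.42. Atp5md, at -0.61 without it, was at -1.62. GC content and length were those of the longest coding transcript of each gene. That transcript had 4715 bases for Atp5g1 and 2733 for Atp5md, beside 753 for Atp5g2 and 723 for Atp5g3. Whether it was the form counted was not tested, so the moves of Atp5g1 and Atp5md are uncertain.

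**Figure D5:**
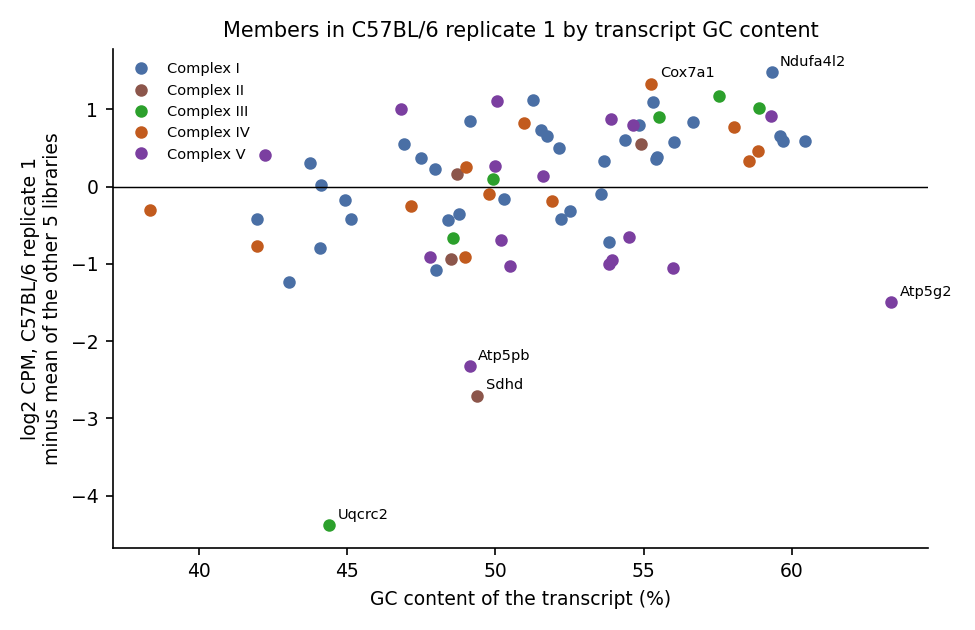
Difference of each member in C57BL/6 replicate 1 from the mean of the other 5 libraries (vertical axis, log2 CPM) by the GC content of its transcript (horizontal axis, percent), coloured by complex. Uqcrc2, Sdhd and Atp5pb lie lowest, all under 50% GC, while Atp5g2 is low at the highest GC content shown.

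In 5 lists of other genes of mitochondrial respiration, 0 genes passed the threshold in the edgeR fit, and 0 had an unadjusted p under 0.05. Differences in parentheses are over 6 libraries and then without C57BL/6 replicate 1. The 3 tested subunits or partners outside the symbol rule, among them cytochrome c1 (Cyc1, -0.01 ± 0.24, 0.13) and the ATP synthase inhibitor Atpif1 (0.13 ± 0.21, 0.13), had a median log2 difference of 0.13. Of 33 tested assembly factors 18 were higher and 15 lower in BALB/c (median 0.05), among them the copper chaperone Cox17 (0.10 ± 0.22, 0.10) and Uqcc2 (-0.48 ± 0.39, 0.03), which serves complex III. Of 14 genes of the citric acid cycle 12 were higher and 2 lower, with a median of 0.31 that was 0.10 without C57BL/6 replicate 1, and malate dehydrogenase Mdh2 had 0.22 ± 0.24 and 0.06. Of 11 carriers and inner membrane genes 9 were higher, with a median of 0.24 that became 0.02, including the phosphate carrier Slc25a3 (0.22 ± 0.21, 0.13) and the adenine nucleotide carrier Slc25a5 (0.35 ± 0.28, 0.14). The regulators, 9 tested, had 6 higher and 3 lower with a median of 0.05, among them Esrra (-0.52 ± 0.30, -0.25) and Pprc1 (0.01 ± 0.26, -0.01), which act on mitochondrial gene expression. The 13 mitochondrially encoded subunits are not analysed here.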

How the data were processed

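A single table of raw counts, genes by symbol in rows and the 6 libraries in columns, was deposited by the authors. The submitters' processing notes name bcl2fastq, STAR 2.4.2a, HTSeq and the build mm10. Settings, strandedness, molecular identifiers and the treatment of reads with several matches were not given in those notes, and the effect of aligning BALB/c reads to a C57BL/6 reference was not tested.

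Members, roles and lists were chosen with earlier results of these data known. Genes were named by a rule: per complex the 3 highest by mean log2 CPM and the 2 highest and 2 lowest by log2 difference, every gene of a paralog set, and symbols that are not subunits of the complex their name gives. Others are marked in the text. From each list of other genes the 2 highest by mean log2 CPM were named, and 1 of these is not reported here. Counts were filtered with filterByExpr by strain, scaled with TMM (factors 0.866 to 1.06) and tested two-sided with edgeR 4.0.16 in R 4.3.3 (robust quasi-likelihood fit, strain as the only term, Benjamini-Hochberg over 8752 genes, threshold 0.05). The biological coefficient of variation was 41.1%. On counts simulated for 8292 genes, 13 unchanged genes were called. DESeq2 1.42.0 and limma 3.58.1 were alternatives. Deviations used log2 CPM with a prior count of 2. Symbols were placed on GRCm38 with GENCODE vM21 (79 of 80 members), and copies of the last 500 bases of a transcript were searched with BLAST 2.17.0 (at least 95% identity over 60 bases): 19 members had a copy, and exons of 29 overlapped another gene. Alternatives were other scalings, filters and tools, a GC and length offset, a replicate block and leaving out each library.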

Additional observations from a re-analysis of the deposited data

How the results depend on the processing

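The main limits are 3 libraries per strain, the distance of C57BL/6 replicate 1 from the others, and the low counts of Ndufa4l2 (8 to 142 per library) and Cox7a1 (4 to 53). Over all genes, 11 passed the threshold with library totals alone, 76 with DESeq2 and 57 with library quality weights, in place of 18, and 0 to 25 when 1 library was left out (0 without BALB/c replicate 2 or 3 or C57BL/6 replicate 3, 4 and 5 without BALB/c replicate 1 and C57BL/6 replicate 2, and 25 without C57BL/6 replicate 1). Among members 1 passed, with quality weights (Atp5g2, 2.63), and 0 in every other setting, including each left-out library. Libraries of equal replicate number had correlations of deviations of -0.42, -0.40 and -0.08. BALB/c replicate 1 and C57BL/6 replicate 2 had 0.58. Such correlations cannot show whether samples were prepared together. The replicate block gave 0 genes and 0 members. Members without overlap between the strains numbered 19 to 29 with 1 library left out, a setting chosen after seeing the data, with 26 and 29 without C57BL/6 replicates 1 and 2. These are 25.3% to 38.7% of the members, beside 17.4% to 29.6% of all tested genes. The mean of log2 CPM over members gave 0.35, 0.27 and 0.19 for complexes II, III and V in place of the ratios of sums. These means include single low values in C57BL/6 replicate 1. There Sdhd, Uqcrc2 and Atp5pb differed by -2.71, -4.38 and -2.33 from the mean log2 CPM of the other libraries.

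Of 478 values of 32 named members over 15 settings, 443 kept direction and call, and 34 changed sign, all at adjusted p of 0.614 or above. Of the 75 tested members 30 kept their direction in every setting. With 1 library left out, the log2 differences that changed sign ran from -0.47 to 0.10 for Atp5d, -0.031 to 0.44 for Atp5g3, -0.31 to 0.21 for Cox4i1, -0.41 to 0.14 for Cox6b1, -0.00059 to 0.39 for Cox8a, -0.56 to 0.14 for Ndufa7, -0.12 to 0.11 for Ndufb9, -0.077 to 0.36 for Sdha, -0.26 to 0.057 for Sdhb, -0.46 to 0.089 for Uqcr10, -0.47 to 0.23 for Uqcr11, -0.60 to 0.26 for Uqcrc1, -0.047 to 1.01 for Uqcrc2 and -0.031 to 0.40 for Uqcrh. Leaving out C57BL/6 replicate 1 changed the sign for Atp5d, Atp5g3, Cox4i1, Cox6b1, Ndufa7, Ndufb9, Sdha, Sdhb, Uqcr10, Uqcr11, Uqcrc1 and Uqcrc2, BALB/c replicate 2 for Ndufb9 and Uqcrh, and C57BL/6 replicate 3 for Cox8a. With quality weights values were 0.024 for Atp5d, -0.046 for Atp5g3, 0.15 for Cox4i1, 0.010 for Cox6b1, 0.071 for Ndufa7, 0.082 for Ndufb9, -0.051 for Sdha, 0.012 for Sdhb, 0.14 for Uqcr11 and 0.30 for Uqcrc1. With the GC and length offset they were 0.016 for Cox4i1, -0.012 for Cox6c, 0.0047 for Ndufb9, -0.0020 for Sdha, -0.16 for Sdhc and -0.072 for Uqcrh. Ndufb9 was 0.053 with library totals alone, 0.031 with upper quartile scaling and 0.022 with a mean of at least 50 counts. The cause of these changes was not tested. The share of Cox6a2, -0.040 percentage points between the strains, ran from -0.56 to 0.42 with 1 library left out. An all-gene test adjusts members for 8752 genes, so a p that missed the threshold does not show that a gene is alike in the strains.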
